A study of Mus musculus with 32 samples.

Results

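The genes of apical constriction and of the actomyosin cytoskeleton described here are Shroom3, Rhoa, Rock1, Rock2, Myh9, Myh10, Myl12a, Vcl, Enah and Marcks. These 10 of the 48576 Ensembl identifiers in the expression files were taken by name for their known roles in neural tube closure, with earlier results of these data known. All 10 were found, and each was above 0 in all 32 libraries. Their levels were compared between forebrain (Fb) and midbrain (Mb) and between wild-type (WT) and cadherin mutant embryos.

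Neural tube closure requires the flat neural plate to bend, and its epithelial cells help by narrowing their apical surface. Shroom3 recruits the kinases Rock1 and Rock2, effectors of the small GTPase Rhoa, to the apical junctions, where they promote phosphorylation of the myosin light chain and contraction of the actin ring by non-muscle myosin II. Vinculin (Vcl) and the Ena/VASP protein Enah tie actin filaments to junctions and elongate them, and Marcks links actin to the plasma membrane. Loss of several of these genes in mice gives exencephaly, an open cranial neural tube.

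RNA was sequenced from Fb and Mb dissected from mouse embryos at E9.5. The authors made the mutant line in B6C3F1 eggs, crossed its founder to B6C3F1 and wrote of a B6C3 hybrid background. Their methods for RNA-seq name no strain. In each tissue there were 6 WT libraries, 4 of Cdh6/8/11 triple knockouts with exencephaly (TKO_Ex), 3 of double knockouts with exencephaly (DKO_Ex, Cdh8/11) and 3 of double knockouts with an elongated Mb described as a cranial defect (DKO_CD, Cdh6/8 in the labels and Cdh8/11 in the methods). The mutations are germline frameshift deletions made with CRISPR/Cas9 in the exons with the start codon, and as all mutants descended from intercrosses of 1 founder line while WT embryos came from separate matings, genotype and lineage cannot be told apart. The labels tell the libraries of a group apart by a replicate number only, so the p-values measure the spread between these libraries, which may be partly technical.

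The unit was FPKM, a fragment count scaled to transcript length and to the mapped fragments of the library, and the depth was estimated from the files at 1.96 to 3.25 M fragments per library. All 4 TKO_Ex Mb libraries (1.96 to 2.32 M) were shallower than all 6 WT Mb libraries (2.39 to 2.92 M). For the 12 DKO libraries the heading inside the file and the GEO record give opposite DKO groups. The headings were followed, and grouping by record exchanges DKO_Ex and DKO_CD completely. Cdh6 was at 3.62 to 4.34 FPKM in the Fb libraries headed as DKO_Ex and at 1.72 to 3.43 in those headed as DKO_CD, and the Mb ranges (1.86 to 3.12 and 1.29 to 2.11) overlapped. The targeted transcripts only partly mark the mutants: Cdh6 was at 0.34 to 0.39 FPKM in 3 TKO_Ex Mb libraries but at 3.10 in the library labelled TKO_Ex 3 (3.74 in the Fb library of that number), against 1.04 to 3.55 in WT Mb. The sum of 5 midbrain markers (En1, En2, Pax2, Pax5 and Pax8) was 91.2 to 181 FPKM in 5 WT Mb libraries and 16.4 in WT Mb 5. In WT Fb it was 4.52 to 7.15. Forebrain markers summed to 166 to 230 FPKM in WT Fb and 0.969 to 12.7 in WT Mb, where WT Mb 5 was the highest. WT Mb 5 was thus low in these midbrain markers but far below WT Fb in forebrain markers.

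The regulatory sequences of the myosin II heavy chains are shown because Myh9 and Myh10 behaved differently between the tissues below, and that of Vcl because it was the member whose upstream bases held a CArG box, the motif of serum response factor that is common at actin cytoskeleton genes. Each line is the 250 bases before an annotated start from RefSeq (GRCm38.p6), written 5′ to 3′ on the strand of the gene, at chr15:77842176-77842425 (minus strand) for Myh9, chr11:68691665-68691914 (plus) for Myh10 and chr14:20929148-20929397 (plus) for Vcl. Capitals mark a CArG box or GGAATG, the core of the TEAD motif, on either strand. The table held starts for 8 of the 10 members. Rock1 and Marcks were not matched.
Myh9: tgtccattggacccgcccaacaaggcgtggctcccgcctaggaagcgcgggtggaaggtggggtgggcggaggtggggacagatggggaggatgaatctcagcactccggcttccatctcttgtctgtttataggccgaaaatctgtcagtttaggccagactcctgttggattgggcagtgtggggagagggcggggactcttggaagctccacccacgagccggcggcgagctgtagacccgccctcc
Myh10: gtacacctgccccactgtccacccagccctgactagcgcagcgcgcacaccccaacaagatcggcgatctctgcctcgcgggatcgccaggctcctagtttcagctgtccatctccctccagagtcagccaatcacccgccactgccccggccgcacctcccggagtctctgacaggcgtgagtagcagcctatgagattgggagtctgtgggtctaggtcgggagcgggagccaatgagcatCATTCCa
Vcl: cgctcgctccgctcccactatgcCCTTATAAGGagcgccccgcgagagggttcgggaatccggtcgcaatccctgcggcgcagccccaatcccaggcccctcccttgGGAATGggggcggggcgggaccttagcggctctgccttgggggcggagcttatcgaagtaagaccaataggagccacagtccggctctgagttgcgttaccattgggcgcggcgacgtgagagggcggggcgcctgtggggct

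The CArG box of Vcl began 227 bases before the start and its GGAATG 143 bases before it. Myh10 had GGAATG on the other strand, beginning 7 bases before the start. The window of Myh9 held neither motif, nor did those of the other 5 matched members. Among 32851 windows of this length, 1.47% held a CArG box and 12.6% held GGAATG on either strand. These matches describe the letters of the windows, and no binding was measured here.

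Expression differed widely among the members, and their order was similar in WT Fb and WT Mb. In GRCm38 with GENCODE M21, Shroom3 lies at chr5:92683435-92965318 (plus strand), Rhoa at chr9:108306129-108337934 (plus), Rock2 at chr12:16894895-16987823 (plus), Myh9 at chr15:77760587-77842175 (minus), Myh10 at chr11:68691559-68816632 (plus) and Myl12a at chr17:70993656-71002878 (minus). Vcl lies at chr14:20929398-21033676 (plus), Enah at chr1:181896384-182019990 (minus), Marcks at chr10:37133375-37138920 (minus) and Rock1 on chromosome 18 (minus). In WT Fb the mean level was 136 ± 13.9 FPKM for Myl12a, 129 ± 12.1 for Marcks, 103 ± 7.38 for Rhoa, 97.1 ± 4.17 for Myh10 and 88.8 ± 8.85 for Enah (SD, n = 6). Each of these 5 overlapped the next of them. Myh9 followed at 55.2 ± 3.22 FPKM and Shroom3 at 13.8 ± 2.11 (SD, n = 6), both apart from their neighbours, and Rock2 (7.98 ± 1.15), Rock1 (5.65 ± 1.09) and Vcl (4.73 ± 1.53) formed an overlapping low group.

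In WT Mb the order was led by Marcks at 168 ± 14.8 FPKM, whose lowest library (153) lay above the highest of Myl12a (132). Myl12a (120 ± 6.22), Rhoa (106 ± 9.76), Myh10 (96.5 ± 6.59) and Enah (78.0 ± 11.96) overlapped in turn. Myh9 was at 32.7 ± 3.002 and Shroom3 at 15.2 ± 1.21, again apart. Rock2 (8.77 ± 0.727, SD, n = 6) lay above Rock1 (5.70 ± 0.688) in every pairing of WT Mb libraries, while Rock1 and Vcl (5.58 ± 1.47) overlapped.

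The low members rest on few fragments. The estimated number per library, from the length of the longest transcript, was 31 to 157 for Vcl, 64 to 171 for Rock1, 105 to 252 for Rock2 and 154 to 330 for Shroom3. Of the others, Myl12a, a short transcript, had 526 to 991 and Enah 1580 to 3878. Vcl had a coefficient of variation of 32.4% in WT Fb, where counting error alone gives 12.2%, and Myh10 one of 4.29%, where it gives 2.21%. The spread of Vcl between libraries was thus larger than that of counting in WT Fb. It was also larger in the other groups except TKO_Ex Mb, where it was 8.96% against 13.1%.

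**Figure D1:**
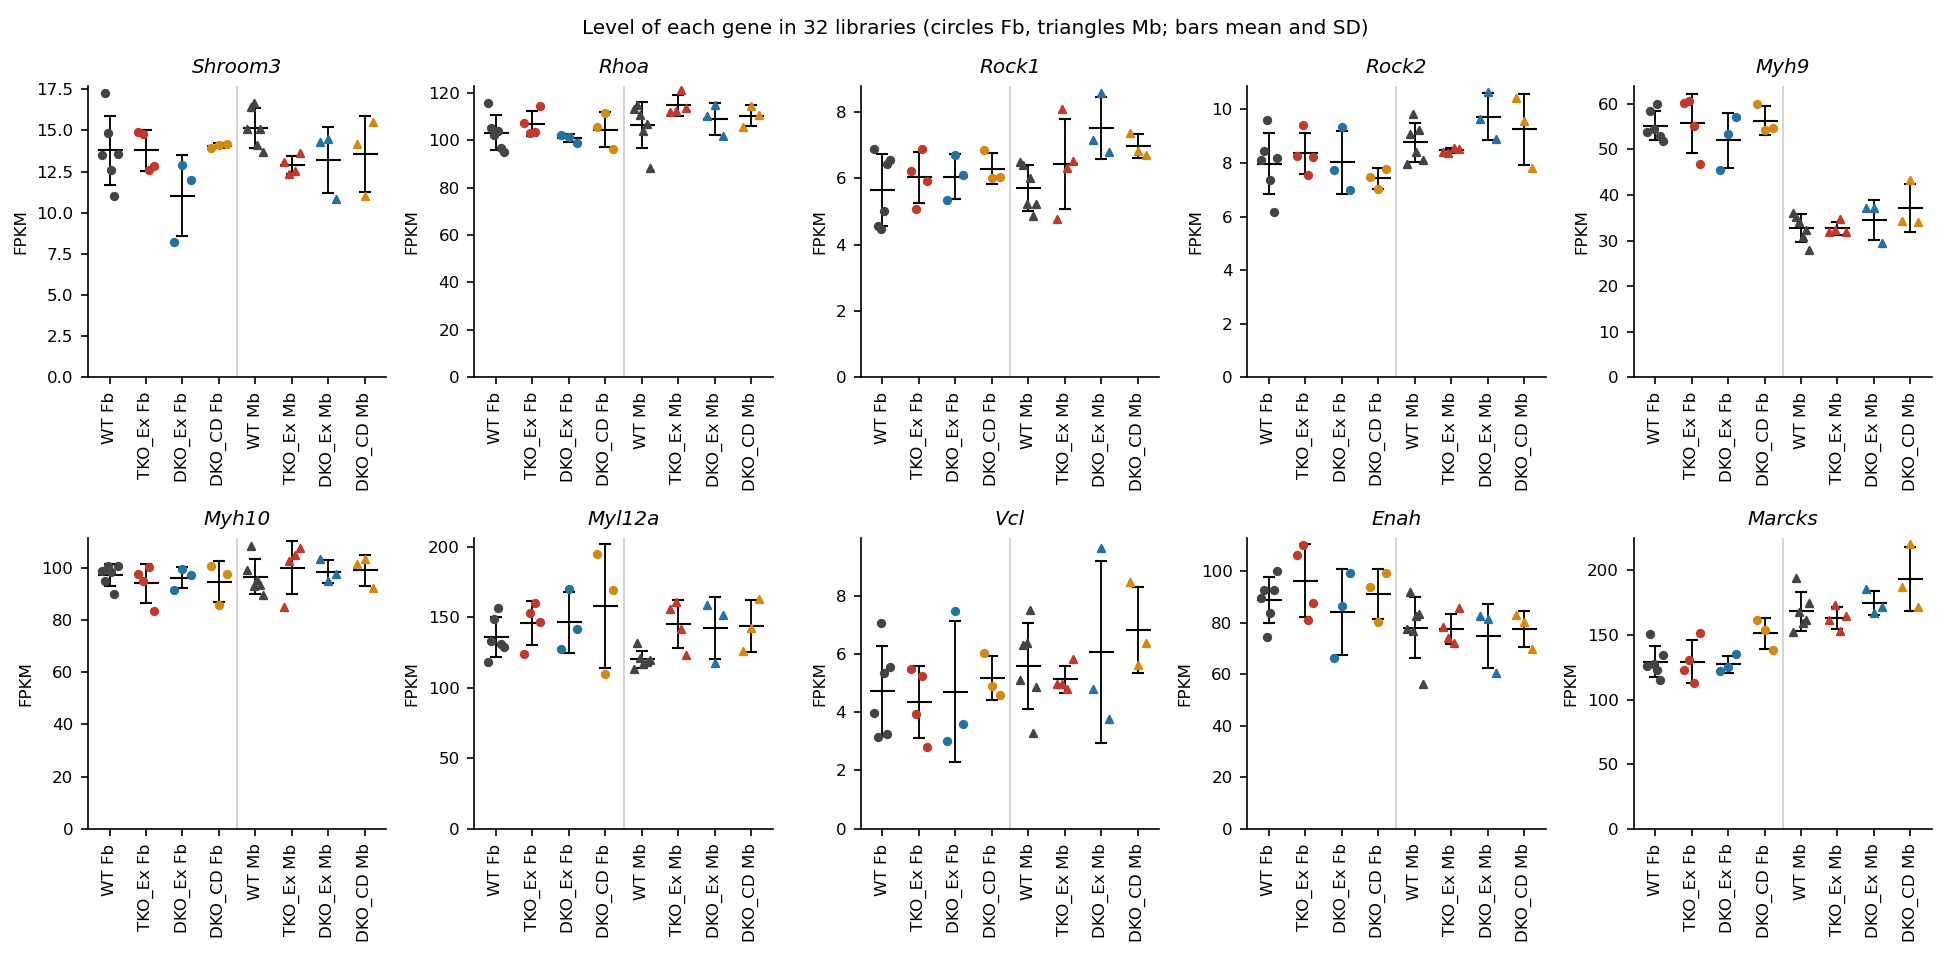
Level of each of the 10 genes in FPKM (vertical axes from 0) in the 32 libraries, by tissue and genotype, with circles for Fb, triangles for Mb and bars for the mean and SD. Myh9 forms a high band in Fb and a low band in Mb in each genotype, Marcks the opposite, and the mutant groups mostly lie within the spread of WT.

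The comparison of WT Mb with WT Fb asks how the 2 brain vesicles differ in the contractile machinery. Of the 10 genes, 1 was higher in Mb (Marcks) and 1 lower (Myh9) at an adjusted p (Benjamini-Hochberg over all genes tested with limma on log2 of FPKM + 1) under 0.05, whereas 8.26% of all 13344 genes tested passed. The median log2 fold change over the members was 0.03 and over all genes -0.00. The median absolute change was 0.16 in the members and 0.17 in all genes.

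Myh9, the heavy chain of non-muscle myosin IIA, lay at 51.9 to 60.0 FPKM in WT Fb (median 54.1) and at 28.0 to 36.0 in WT Mb (median 33.2). The ranges were well apart. Here and below, the share of all genes with such a gap between the tissues was not counted. The log2 fold change was -0.74 (SE 0.07, 95% interval -0.90 to -0.58), which means that FPKM + 1 fell by 40.1%, with an adjusted p of 2.46e-05 in limma. Without WT Mb 5, the library with few midbrain marker transcripts, it was -0.74.

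The low level of Myh9 in Mb was present in each mutant group too. TKO_Ex had 60.2, 60.7, 55.2 and 46.7 FPKM in Fb and 31.8, 32.2, 34.8 and 31.9 in Mb. DKO_Ex had 45.4, 53.4 and 57.1 in Fb and 37.1, 37.1 and 29.5 in Mb, and DKO_CD had 59.9, 54.2 and 54.7 in Fb and 34.2, 43.3 and 34.1 in Mb. Over all genotypes, the highest of the 16 Mb libraries (43.3) was below the lowest of the 16 Fb libraries (45.4).

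In TKO_Ex the Mb-to-Fb difference of Myh9 passed the threshold, with a log2 fold change of -0.75 (SE 0.11, adjusted p = 0.00569 in limma), and 2.89% of 13477 genes passed. Without both libraries labelled TKO_Ex 3 the value was -0.78 with an adjusted p of 0.0539. In DKO_Ex the log2 fold change of Myh9 was -0.58 (95% interval -0.91 to -0.24, adjusted p = 0.103) and in DKO_CD -0.59 (-0.89 to -0.29, adjusted p = 0.143), which did not pass in limma. In these groups of 3 libraries, 2.58% of 13314 genes and 0.507% of 13415 genes passed, none of them a member. At an unadjusted p under 0.05, 2 members passed in DKO_CD, Myh9 and Marcks, beside 10.1% of all genes, and the same 2 passed in DKO_Ex, beside 14.4% of all genes. In the alternative that fitted all 8 groups together, which pools their spread, Myh9 passed in both DKO groups (adjusted p = 0.00180 in DKO_Ex and 0.00206 in DKO_CD), beside 4.03% and 2.69% of all genes, shares that were also above those of the separate fits. In WT and TKO_Ex that fit called Myh9 and Marcks, beside 9.63% and 4.93% of all genes. That the tissues differ less in the DKO groups was not shown: the difference from the WT contrast was 0.16 (95% interval -0.13 to 0.46) in DKO_Ex and 0.15 (-0.13 to 0.43) in DKO_CD.

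Markers of some other cells also differed between the tissues. The sum of 8 surface ectoderm markers, among them Epcam, Krt8, Krt18 and Cdh1, was 64.7 to 106 FPKM in WT Fb and 24.9 to 38.5 in WT Mb, and that of 9 mesenchyme markers 205 to 236 and 117 to 217. The surface ectoderm sum was also lower in Mb in each mutant group, without overlap. The mesenchyme sums of Fb and Mb overlapped in WT and in each mutant group. In Fb and Mb the sum was 141 to 191 and 144 to 190 in TKO_Ex. It was 150 to 176 and 152 to 208 in DKO_Ex, and 110 to 240 and 196 to 288 in DKO_CD. In TKO_Ex Fb the surface ectoderm sum ranged from 96.8 to 243 FPKM, and the library with the highest sum had the lowest Myh9 of that group (46.7). In Mb, the library with the most Myh9 of all 16, in DKO_CD (43.3), had the highest surface ectoderm sum (75.6) and the highest mesenchyme sum (288). In these bulk samples, a different number of cells of a type and a different amount of RNA per cell cannot be told apart, and the part of the markers in the result was not tested.

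Myh10, the heavy chain of myosin IIB, did not follow Myh9. It lay at 89.8 to 101 FPKM in WT Fb (median 98.4) and 89.6 to 108 in WT Mb (median 94.4), and the ranges overlapped. The log2 fold change was -0.01, with a 95% interval of -0.14 to 0.12, which is -9.37% to 8.72% of FPKM + 1. Across all 32 libraries Myh10 ranged from 83.2 to 108 FPKM.

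The ratio of both heavy chains, which does not depend on the scaling of a library, therefore separated the tissues. Myh10 was 1.62 to 1.94 times Myh9 in WT Fb and 2.73 to 3.20 times in WT Mb. The mean log2 ratio of Myh9 to Myh10 was -0.81 in WT Fb and -1.56 in WT Mb, a difference of -0.75 (p = 0.00216 in a two-sided exact permutation test, the minimum for 6 against 6 libraries, and 0.0303 after adjustment over the 14 ratio tests). The test took Fb and Mb libraries as independent. However, 5 of 6 WT Fb libraries correlated best with the Mb library of their own number, and no paired test of the ratio was run. In the mutants the ratio of Myh10 to Myh9 was 1.56 to 2.02 in Fb and 2.38 to 3.37 in Mb. None of the 6 comparisons of this ratio between a mutant group and WT in the same tissue reached an adjusted p under 0.05 (exact permutation tests, adjusted p = 0.542 to 0.736, unadjusted p = 0.131 to 0.631, none under 0.05).

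**Figure D2:**
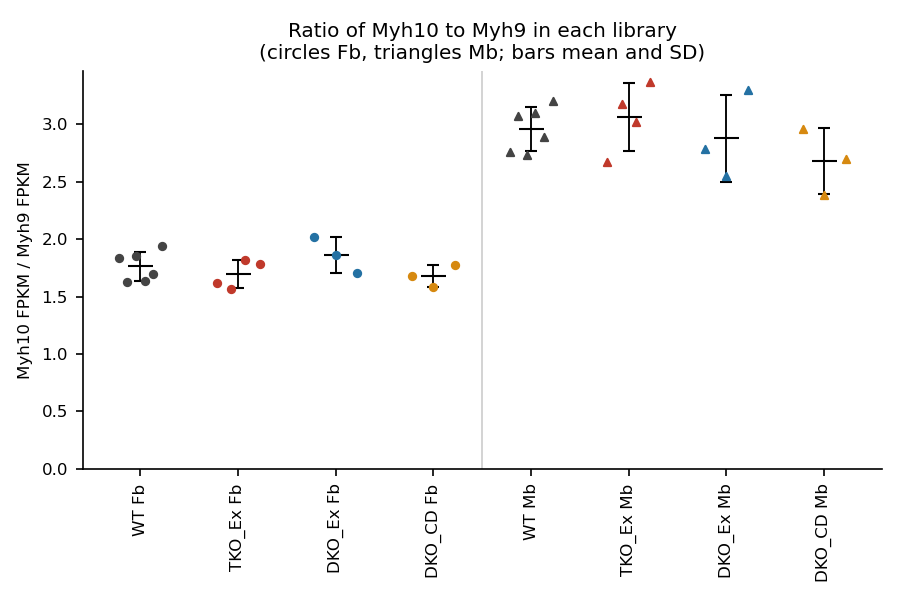
Ratio of Myh10 FPKM to Myh9 FPKM (vertical axis from 0) in each of the 32 libraries by group, with circles for Fb, triangles for Mb and bars for the mean and SD. Every Fb library lies at or below 2.02 and every Mb library at or above 2.38.

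Marcks, a membrane-associated substrate of protein kinase C that binds actin, was the member that was higher in Mb. It lay at 115 to 151 FPKM in WT Fb (median 127) and 153 to 194 in WT Mb (median 164), without overlap. Its log2 fold change was 0.38 (SE 0.08, 95% interval 0.21 to 0.54, adjusted p = 0.00709 in limma), and 0.39 without WT Mb 5.

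In the mutants Marcks was likewise higher in Mb in each group. TKO_Ex had 123, 131, 113 and 152 FPKM in Fb and 162, 173, 153 and 165 in Mb, DKO_Ex 122, 125 and 135 in Fb and 185, 167 and 171 in Mb, and DKO_CD 162, 153 and 138 in Fb and 187, 220 and 172 in Mb. Within each genotype the tissues did not overlap, although over all genotypes the highest Fb library (162, DKO_CD) exceeded the lowest Mb library (153). Log2 fold changes of Marcks were 0.34 in TKO_Ex, 0.45 in DKO_Ex and 0.35 in DKO_CD, with adjusted p of 0.159, 0.0525 and 0.357 in limma, none of which passed. The sum of 6 neuroepithelium markers (Sox1, Sox2, Sox3, Nes, Cdh2 and Fabp7) moved the same way as Marcks, from 264 to 367 FPKM in WT Fb to 403 to 472 in WT Mb. The sum of 5 neuron markers differed more, at 5.84 to 10.98 FPKM in WT Fb and 32.1 to 73.9 in WT Mb, and also lay higher in Mb without overlap in each mutant group. The part of either in the result was not tested.

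The other 8 members did not pass between WT Mb and WT Fb, and their ranges overlapped. Myl12a, a regulatory light chain of myosin II, had 118 to 156 FPKM in Fb (median 132) and 114 to 132 in Mb (median 119), with a log2 fold change of -0.17 (95% interval -0.33 to -0.02, unadjusted p = 0.0334, adjusted p = 0.190 in limma). Enah had 74.2 to 99.9 in Fb (median 91.1) and 56.3 to 91.9 in Mb (median 80.1), with a log2 fold change of -0.19 (-0.43 to 0.04). The fold change of Enah was negative in each genotype, from -0.16 in DKO_Ex to -0.30 in TKO_Ex, without passing.

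The upstream members were close to level. Shroom3 had 11.03 to 17.3 FPKM in WT Fb (median 13.5) and 13.7 to 16.7 in WT Mb (median 15.1), with a 95% interval of the log2 fold change of -0.08 to 0.36. For Rhoa the medians were 103 and 109 FPKM, with an interval of -0.12 to 0.21. The intervals were -0.25 to 0.30 for Rock1, -0.10 to 0.35 for Rock2 and -0.22 to 0.64 for Vcl. A rise of FPKM + 1 of Vcl by up to 56.1%, which is more in FPKM at its low level, thus lay within its interval.

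**Figure D3:**
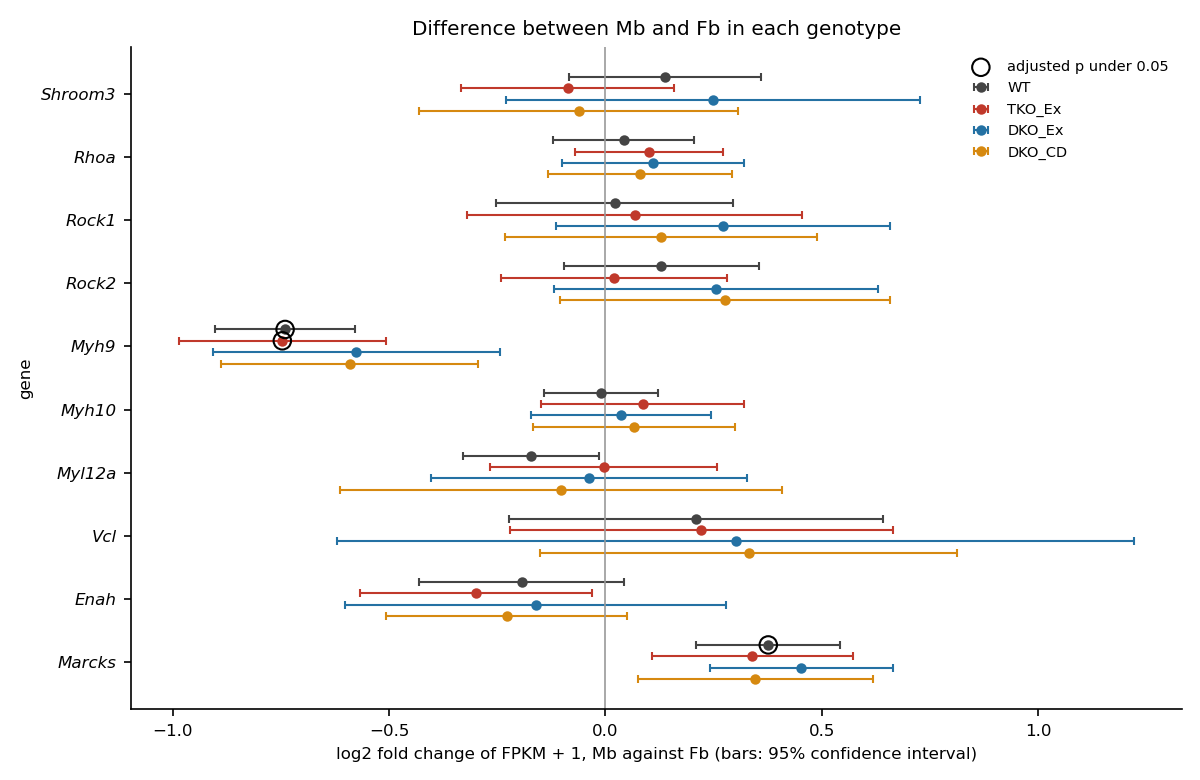
Log2 fold change of FPKM + 1 between Mb and Fb (horizontal axis) for each of the 10 genes (vertical axis) in WT and each mutant group, with 95% confidence intervals as bars and rings for an adjusted p under 0.05. Myh9 lies to the left of 0 (-0.58 to -0.75) and Marcks to the right (0.34 to 0.45) in each genotype, and the rings are on Myh9 in WT and TKO_Ex and on Marcks in WT.

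Among 48 other genes of the pathway, 45 were expressed highly enough to be tested in WT, of which 3 were higher and 5 lower in Mb. These were 17.8% of the lists, beside 8.26% of all 13344 genes tested. The counts in the single lists were not tested against this share. In the list of upstream regulators, 3 of 14 passed. Rhob, a relative of Rhoa, rose by a log2 fold change of 0.50 (37.1 ± 3.52 FPKM in WT Fb and 53.1 ± 7.15 in WT Mb, SD, n = 6, adjusted p = 0.00624 in limma), and Rnd3, an atypical small GTPase that antagonizes Rock1, by 0.44. Lmo7 fell by 1.21 on the log2 scale, from a low and scattered level (0.599 to 7.19 FPKM in WT Fb and 0.144 to 0.943 in WT Mb).

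Of the myosin regulators and partners, 1 of 10 passed, beside 8.26% of all genes tested. Mylk, the myosin light chain kinase, lay at 3.55 to 5.59 FPKM in WT Fb and at 7.40 to 12.02 in WT Mb, without overlap, and rose by a log2 fold change of 0.94 (SE 0.13, adjusted p = 0.000327 in limma). It also passed in TKO_Ex (0.75, adjusted p = 0.0125) and DKO_Ex (1.06, adjusted p = 0.0271). Rhob passed in TKO_Ex as well (0.48, adjusted p = 0.0272), but not in DKO_Ex (0.59, adjusted p = 0.0504) or DKO_CD (0.22, adjusted p = 0.572). Myh14, the third non-muscle heavy chain, was at 0.114 to 1.76 FPKM in the WT libraries and was therefore far below Myh9 and Myh10, as FPKM is per length.

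The genes that passed among actin and its binding proteins were lower in Mb. Of 13 tested 3 passed, beside 8.26% of all genes tested. Among them were Tpm1 (tropomyosin, log2 fold change -0.49) and Pfn1 (profilin, -0.31). Tln1 (talin, which binds vinculin, -0.42) was the 1 of 8 in the list of Vcl and Enah partners. Tpm1 lay at 149 to 189 FPKM in WT Fb and 102 to 133 in WT Mb, and these ranges were apart. Actb, the main cytoplasmic actin, was at 1188 ± 93.1 FPKM in WT Fb and 1255 ± 157 in WT Mb (SD, n = 6).

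**Figure D4:**
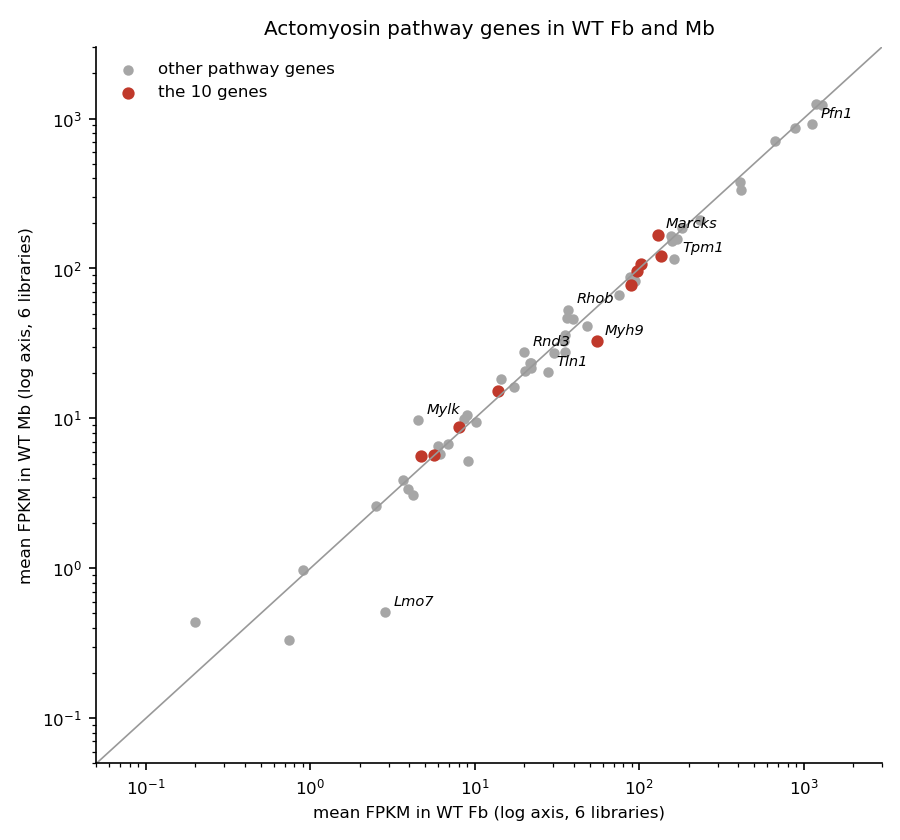
Mean FPKM of 6 WT Fb libraries (horizontal log axis) against the mean of 6 WT Mb libraries (vertical log axis) for the 10 genes (red) and 48 other pathway genes (grey), with a line of equal level. The pathway genes named in the text as past the threshold are labelled, as are Myh9 and Marcks, and Myh9 and Lmo7 lie farthest below the line among the labelled genes.

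The comparison of each mutant group with WT asks whether the loss of the cadherins goes with a changed level of these transcripts. In none of the 6 comparisons did a member pass the threshold in limma, at an unadjusted p under 0.05 the count was 2 in TKO_Ex Mb, 2 in DKO_Ex Mb, 1 in DKO_CD Mb, 0 in TKO_Ex Fb, 0 in DKO_Ex Fb and 1 in DKO_CD Fb, and few genes passed anywhere. In Mb the share of all tested genes past the threshold was 0.0898% in TKO_Ex, 0.0903% in DKO_Ex and 0.0375% in DKO_CD, and at an unadjusted p under 0.05 it was 8.38%, 5.46% and 6.69%. In Fb it was 0.0603% in TKO_Ex, 0.0759% in DKO_Ex and 0.0378% in DKO_CD, and 8.66%, 7.01% and 8.44% unadjusted. With 10 members, a count of 0 to 2 at an unadjusted p under 0.05 is near this background. The 3 comparisons in a tissue share the same 6 WT libraries. Where ranges of a mutant group and another group do not overlap below, the share of all genes with such a gap was not counted.

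Myl12a was above WT in the mean of each mutant group in Mb. WT Mb had 114 to 132 FPKM (median 119), the narrowest group, with a coefficient of variation of 5.17%. TKO_Ex Mb had 156, 161, 142 and 123, DKO_Ex Mb 159, 118 and 152, and DKO_CD Mb 126, 143 and 163. All 3 mutant groups overlapped WT through their lowest library. The log2 fold changes were 0.27 in TKO_Ex (95% interval 0.08 to 0.45, unadjusted p = 0.00994, adjusted p = 0.435 in limma), 0.23 in DKO_Ex (0.00 to 0.47, unadjusted p = 0.0473, adjusted p = 0.904) and 0.25 in DKO_CD (0.04 to 0.46, unadjusted p = 0.0226, adjusted p = 0.686).

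In Fb, Myl12a varied more, from 118 to 156 FPKM in WT and from 110 to 195 in DKO_CD, and the log2 fold changes were 0.10, 0.10 and 0.18 in the order TKO_Ex, DKO_Ex and DKO_CD. Myl12b encodes a nearly identical light chain, so that fragments of either gene may have been assigned to the other. Its log2 fold change in Mb was between -0.24 and 0.24 in TKO_Ex by the 95% interval, with means of 66.9 FPKM in WT Mb and 66.4 in TKO_Ex Mb.

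Shroom3, the scaffold of apical constriction, was lower than WT in the mean of the 3 mutant groups in Mb. TKO_Ex Mb had 13.1, 12.4, 12.5 and 13.6 FPKM, all just below the lowest of the WT Mb libraries (13.7 to 16.7, median 15.1). The log2 fold change was -0.22 (95% interval -0.42 to -0.01, unadjusted p = 0.0387, adjusted p = 0.579 in limma), and -0.20 without the library labelled TKO_Ex 3. DKO_Ex Mb had 14.3, 14.5 and 10.9 and DKO_CD Mb 14.1, 11.03 and 15.5, which overlapped WT.

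In Fb, Shroom3 was at 8.24, 12.89 and 12 FPKM in DKO_Ex, 1 library of which was below every other library of the series (WT Fb 11.03 to 17.3, median 13.5). Its log2 fold change against WT was -0.31 with an interval of -0.67 to 0.06. TKO_Ex Fb (12.6 to 14.9) and DKO_CD Fb (13.9 to 14.2) lay within the range of WT Fb.

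The mean of Rock1 in Mb was above WT in both DKO groups without passing the threshold. WT Mb had 4.85 to 6.49 FPKM (median 5.62), DKO_Ex Mb 7.16, 8.58 and 6.801 and DKO_CD Mb 7.37, 6.84 and 6.69. Neither DKO group overlapped WT, a gap whose share over all genes was not counted, and both were set against the same WT libraries. The log2 fold change of Rock1 was 0.35 in DKO_Ex (95% interval 0.04 to 0.65, unadjusted p = 0.0317, adjusted p = 0.874 in limma) and 0.26 in DKO_CD (-0.04 to 0.55, unadjusted p = 0.0844, adjusted p = 0.812). TKO_Ex Mb spread from 4.78 to 8.08 FPKM and enclosed the WT range. The DKO_Ex Mb libraries were also the deepest of the Mb libraries, at 3.09 to 3.23 M fragments, whereas DKO_CD Mb (2.47 to 2.75 M) lay within the depth range of WT Mb.

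Rock2, which encodes a paralog of Rock1, was at 9.65, 10.7 and 8.89 FPKM in DKO_Ex Mb and at 8.38 to 8.57 in TKO_Ex Mb, against 7.97 to 9.82 in WT Mb (median 8.75). These ranges overlapped. The ratio of Rock2 to Rock1 was 1.23 to 1.90 in WT Mb, 1.24 to 1.35 in DKO_Ex Mb and 1.17 to 1.41 in DKO_CD Mb. In none of the 6 comparisons of a mutant group with WT did it reach an adjusted p under 0.05 (exact permutation tests, adjusted p = 0.542 to 0.919, none under 0.05 before adjustment).

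Marcks had an unadjusted p under 0.05 against WT in DKO_CD Fb and in no other mutant comparison. DKO_CD Fb had 162, 153 and 138 FPKM against 115 to 151 in WT Fb (median 127). The ranges overlapped. The log2 fold change was 0.22 (95% interval 0.02 to 0.43, unadjusted p = 0.0344, adjusted p = 0.561 in limma). Grouped by record, DKO_CD Fb takes the libraries of DKO_Ex and the value was -0.02. In Mb, DKO_CD had 187, 220 and 172 FPKM against 153 to 194 in WT (median 164) and a log2 fold change of 0.19 (-0.04 to 0.43).

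For the remaining members the mutant means were near those of WT. The 95% interval of Rhoa against WT in Mb was -0.07 to 0.30 in TKO_Ex, -0.18 to 0.26 in DKO_Ex and -0.16 to 0.27 in DKO_CD. That of Myh10 was -0.14 to 0.24, -0.16 to 0.22 and -0.15 to 0.23, and that of Myh9 -0.20 to 0.20, -0.18 to 0.33 and -0.08 to 0.44 in the same order. A rise of Myh10 in TKO_Ex Mb by more than 18.0% thus lay outside its interval, and smaller changes lay within it.

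Enah and Vcl were less precisely measured. The interval of Enah in Mb was -0.27 to 0.27 in TKO_Ex. Vcl had 4.81, 9.62 and 3.76 FPKM in DKO_Ex Mb and 3.02, 7.48 and 3.60 in DKO_Ex Fb, with the same replicate number high in both tissues, against 3.30 to 7.51 in WT Mb (median 5.70). Its interval in Mb was -0.57 to 0.66 in DKO_Ex.

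**Figure D5:**
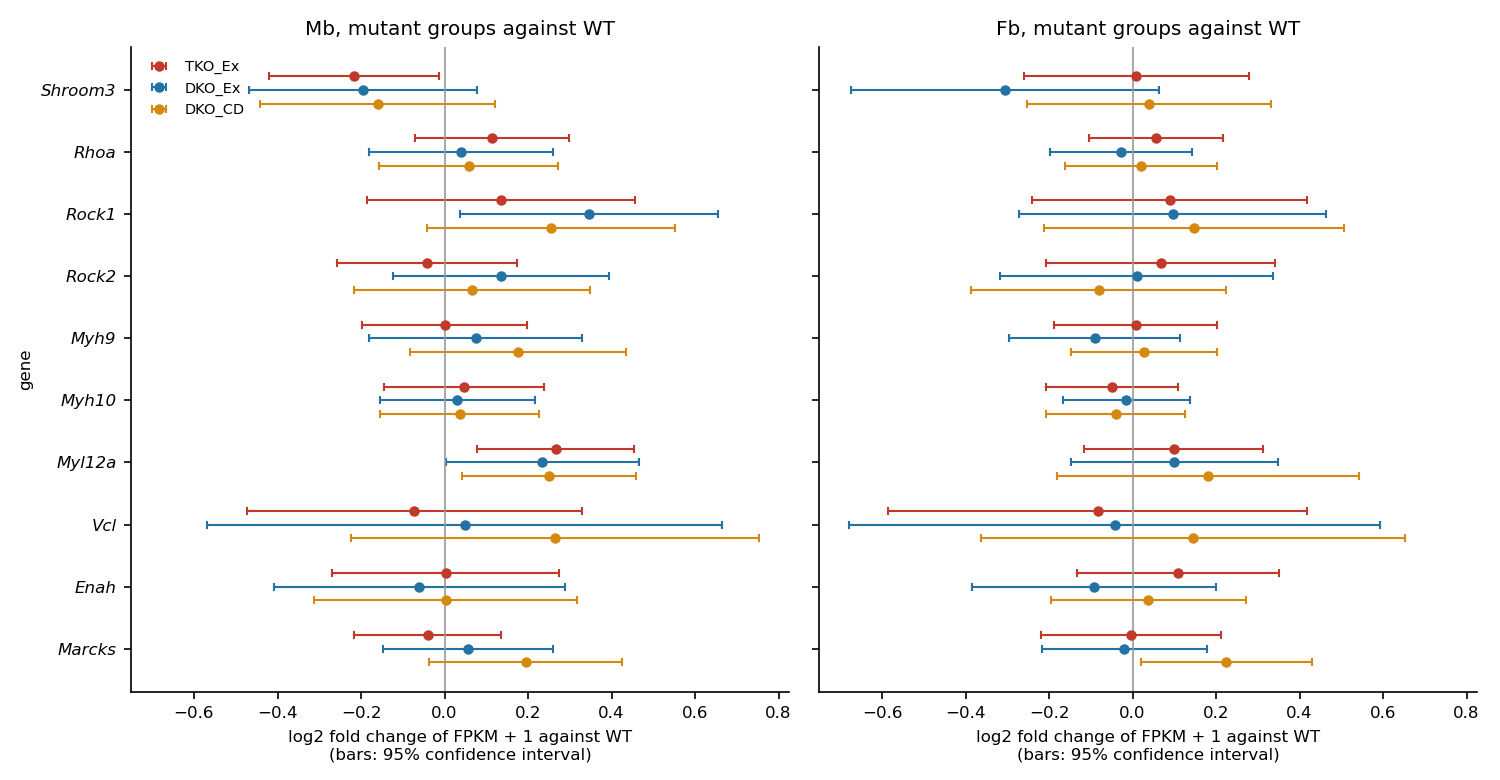
Log2 fold change of FPKM + 1 against WT (horizontal axes) for each of the 10 genes (vertical axis) in Mb (left) and Fb (right) for TKO_Ex, DKO_Ex and DKO_CD, with 95% confidence intervals as bars. No value passed the threshold, and Myl12a in Mb (0.23 to 0.27) lies to the right of 0 in all 3 groups.

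The lists of other pathway genes gave no call in the separate fits of the mutants either. Tpm4 is described below. Of 44 to 47 genes tested in each of the 6 comparisons with WT, 0 passed in limma. Of these genes, 3 to 6 had an unadjusted p under 0.05, beside 5.46% to 8.66% of all genes tested. The median log2 fold change over the lists in Mb was -0.01 in TKO_Ex, 0.06 in DKO_Ex and 0.04 in DKO_CD, beside 0.02, 0.03 and 0.02 over all genes tested. Over the members it was 0.00, 0.05 and 0.12.

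Tpm4, which encodes a tropomyosin that binds along actin filaments, was picked out after its values were seen. WT Mb had 141 to 172 FPKM (median 146), TKO_Ex Mb 207, 229, 194 and 229, DKO_Ex Mb 219, 236 and 176 and DKO_CD Mb 220, 261 and 217. WT Fb had 138 to 173 (median 160), TKO_Ex Fb 228, 241, 195 and 233, DKO_Ex Fb 218, 233 and 204 and DKO_CD Fb 258, 199 and 245. Each mutant library was above every WT library of its tissue, a separation whose share over all genes was not counted. In Mb the log2 fold changes were 0.49 in TKO_Ex, 0.46 in DKO_Ex and 0.61 in DKO_CD (adjusted p = 0.0799, 0.479 and 0.112 in limma), and in Fb 0.50, 0.46 and 0.56 (adjusted p = 0.104, 0.137 and 0.135), none of which passed. With all 8 groups in one fit it passed in TKO_Ex and DKO_CD in both tissues (adjusted p = 0.00892 and 0.00352 in Mb and 0.0134 and 0.0142 in Fb), where 0.283%, 0.0670%, 0.238% and 0.0818% of all genes passed, and not in DKO_Ex (adjusted p = 0.0837 in Mb and 0.0634 in Fb), where 0.0893% and 0.0967% of all genes passed. In TKO_Ex Mb it also passed without WT Mb 1 (adjusted p = 0.0292).

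Whether a mutant effect differed between Mb and Fb was tested as an interaction. No member passed in limma, and none had an unadjusted p under 0.05. Of all genes, 0.0149% passed in TKO_Ex, 0% in DKO_Ex (0 of 13349) and 0.00746% in DKO_CD, and 6.50%, 3.88% and 4.83% had an unadjusted p under 0.05. The difference of effects was -0.23 for Shroom3 in TKO_Ex (95% interval -0.53 to 0.08), 0.17 for Myl12a in TKO_Ex (-0.10 to 0.44) and 0.25 for Rock1 in DKO_Ex (-0.18 to 0.68).

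DKO_Ex and DKO_CD, with and without exencephaly, were compared directly. No member passed in Mb or Fb in limma, 0.0450% and 0.00753% of all genes did, and at an unadjusted p under 0.05 the shares were 6.48% and 5.54% with 0 members in Mb and 1 in Fb. That member was Marcks in Fb, with 122 to 135 FPKM in DKO_Ex and 138 to 162 in DKO_CD. Its ranges did not overlap, and its log2 fold change was -0.24 (95% interval -0.47 to -0.02, unadjusted p = 0.0381, adjusted p = 0.880 in limma). In Mb, Shroom3 (-0.46 to 0.39), Rock1 (-0.27 to 0.46) and Myh9 (-0.45 to 0.25) had wide intervals with 3 libraries a group.

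The genes whose levels ran most like those of a member over the 32 libraries, by Pearson's r of log2 of FPKM + 1 among genes of at least 5 FPKM, were closest for the members that separated the tissues. For Marcks they were Ckb (brain creatine kinase, r = 0.95), Tubb2b (a neural beta-tubulin, 0.92) and Nes (nestin, 0.90). For Myh9 they were Gldc (glycine decarboxylase, r = 0.94) and the forebrain transcription factor Fezf1 (0.94). The 32 libraries share the split into Fb and Mb, which enters these values. For the other 8 members the closest gene had r between 0.58 (Hmgn3 with Myl12a) and 0.74 (Zfp609 with Enah).

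Among the members themselves, with group means removed, the highest r over the 32 libraries was 0.59 for Myh9 and Enah, followed by 0.51 for Myh9 and Myh10 and 0.47 for Shroom3 with Enah and with Rock2. The lowest was -0.21 for Rhoa and Myl12a, and Rock1 with Rock2 had -0.19. These values share depth and tissue composition and are given as a description.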

How the data were processed

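RNA-seq of 32 Fb and Mb libraries was analysed. The authors aligned directional reads to GRCm38 (mm10) with TopHat2, computed expression with Cufflinks and deposited FPKM per gene, so the values are already scaled to gene length and library size. Tool versions are not given in the sources used here. The authors also counted reads with HTSeq for DESeq2, and those counts were not analysed here. The FPKM of 65 repeated identifiers were summed, and 48218 of 48576 identifiers were found in GENCODE M21. The depth (1.96 to 3.25 M fragments) was taken from the spacing of low values in 771 long single-transcript genes, of which 86.7% to 93.6% per library fell within 0.1 of a whole fragment. FPKM steps depend on gene length, so whole counts were not rebuilt.

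Differences were tested with limma 3.58.1 (R 4.3.3) on log2 of FPKM + 1 (lmFit, eBayes, trend), for genes of at least 1 FPKM on average over the libraries of the fit. Adjusted p are Benjamini-Hochberg over all genes tested, with a threshold of 0.05. Each mutant group was fitted with WT in its tissue, tissues were compared within a genotype, and interactions used both tissues of both genotypes, 15 comparisons in all. Log2 fold changes understate the change of low genes because of the added 1. On simulated data with 100 genes changed by 1 on the log2 scale, the fit recovered 97 in TKO_Ex against WT in Mb, 96 in WT Mb against Fb and 67 in the DKO_Ex interaction, with 6, 11 and 6 false calls among 13375, 13350 and 13360 genes. The changed genes were drawn from the better expressed ones, and all genes had the same dispersion and all libraries the same depth. Changes as small as those of the members against WT were not simulated, so the power for them is not known. For ratios of paralogs, exact permutation tests (two-sided) were used (SciPy 1.17.1, Python 3.11.15), adjusted over 14 tests.

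Groups came from the labels, and in 12 DKO files from the column heading, which conflicts with the record. Same-numbered Fb and Mb libraries were checked for pairing by the correlation of their deviations from the group means. It was 0.0601 to 0.134 in WT, -0.00601 to 0.155 in TKO_Ex, 0.105 to 0.200 in DKO_Ex and -0.00504 to 0.185 in DKO_CD, so that all pairs were over 0.1 in DKO_Ex but not in the other genotypes. The fits used no block, and the block is among the alternatives. Genes named were the 10 members, pathway genes past the threshold (at most 6 per list and comparison, in 4 lists of 48 genes) and the 3 genes most correlated with each member among genes of at least 5 FPKM. Myl12b, Myh14, Actb, Tpm4 and the Cdh genes were named after their values were seen. The members and lists were chosen with earlier results of these data known. Some genes that this rule names are not reported here. Of the marker lists, Foxc2 and Tubb3 were not analysed here. The endothelium sum was 22.9 to 53.4 FPKM, the red cell sum 2655 to 23538 and the neuron sum 5.84 to 73.9 over all libraries. The alternatives were no filter, added values of 0.1 and 5, median-of-ratios scaling, all 8 groups in one fit, no trend, the replicate number as a block, grouping by record, a log2 ratio of FPKM + 1, and each library left out. Leaving out both libraries labelled TKO_Ex 3 was added after the data were seen.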

Additional observations from a re-analysis of the deposited data

Results flagged for a closer look

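The 10 genes and both paralog ratios were examined in the 4 groups of 4 or 6 libraries (48 sets of values) for a library with a wide gap to the others, and 3 were found. Chance gives about 1 in 20. All 3 were in the TKO_Ex Mb. Rhoa was at 121 FPKM in the library labelled TKO_Ex 3, against 113 in the next. Myh9 was at 34.8 in the same library, against 32.2 in the next, still below every Fb library. Vcl was at 5.81 in TKO_Ex 4, against 4.97 in the next.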

How the results depend on the processing

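In WT, the higher Marcks and lower Myh9 of Mb passed the threshold in limma under each of the 7 alternatives and with each of 12 libraries left out. The log2 fold change of Myh9 ranged from -0.76 to -0.68 and, leaving out a library, from -0.77 to -0.70, and that of Marcks from 0.37 to 0.38 and from 0.33 to 0.42. In TKO_Ex, the lower Myh9 passed under 7 alternatives (-0.76 to -0.68) and with any 1 of 8 libraries left out (-0.83 to -0.70), and without both libraries labelled TKO_Ex 3 it was -0.78 with an adjusted p of 0.0539, which left 0 members. With all 8 groups in one fit, which shares their spread, 2 members passed in TKO_Ex (Marcks 0.34, adjusted p = 0.0261), 2 in DKO_Ex (Myh9 and Marcks, adjusted p = 0.00180 and 0.00948) and 1 in DKO_CD (Myh9, adjusted p = 0.00206). That fit also raised the calls over all genes, from 389 to 663 in TKO_Ex, from 344 to 542 in DKO_Ex and from 68 to 362 in DKO_CD, or 4.93%, 4.03% and 2.69% of 13441. Of 2120 values of members in the mutant, interaction and DKO_Ex against DKO_CD comparisons under the alternatives, 0 passed, the lowest adjusted p being 0.245 (Myl12a in TKO_Ex Mb). Over all results that were not called, with the tissue comparisons and the paralog ratios included, the sign changed in 235 values. For DKO_Ex against DKO_CD, grouping by record reverses the sign by construction. With the replicate number as a block, 2 members passed in WT, 1 in TKO_Ex and 0 in the other comparisons, and the block changed no call of a member. Of 16 Fb libraries, 12 correlated best with the Mb library of their own number (5 of 6 in WT, 3 of 4 in TKO_Ex, 3 of 3 in DKO_Ex and 1 of 3 in DKO_CD). Over all genes, the block gave 893 calls in WT (1102 without it), 40 in DKO_CD between tissues (68 without it) and 0 in both TKO_Ex against WT comparisons (12 in Mb and 8 in Fb without it). Same-numbered WT and TKO_Ex libraries are of different embryos, with r of -0.11 to 0.0665 in Fb and -0.0505 to 0.0487 in Mb. There the block joins libraries by number only, so this loss of calls is not a result about pairing. Grouping by record gave 0 members in the DKO comparisons. The difference in the log2 ratio of Myh9 to Myh10 in WT ranged from -0.75 to -0.73, and from -0.78 to -0.72 without each library, with an adjusted p of 0.0303. This adjusted p is tied to the minimum p of the unpaired permutation test, so that it cannot show a stronger or weaker separation. Small changes of Vcl and Rock1 lay within their intervals. The counting error of Vcl in WT was 11.3% to 12.2% and its spread between libraries 26.3% to 32.4%.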
